A study of Homo sapiens with 2 samples.

Results

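The ERK pathway feedback genes are 10 genes, chosen by name from the 19607 genes in the expression table: the phosphatases DUSP4, DUSP5 and DUSP6, the Sprouty proteins SPRY1, SPRY2 and SPRY4, the Sprouty-related proteins SPRED1 and SPRED2, and the transcription factors ETV4 and ETV5. All 10 were found in the table and all 10 had enough reads to be compared. They were measured by RNA sequencing in CWR22rv1, a human prostate cancer line, with 1 library of Akt1/2 knockout cells (Akt1/2 DKO) and 1 library of wild type cells (control). The knockout cells had been transfected with Cas9 plasmids against both genes, selected with puromycin and isolated as monoclonal cells. The sources do not say which clone was sequenced or whether the control cells went through the same selection, so an effect of the knockout and a difference of 1 clone cannot be told apart. The question the comparison addresses is how loss of both kinases changed the RNA of these cells, and here how it changed the genes that ERK signalling switches on to limit itself.

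ERK is the last kinase of the cascade in which growth factor receptors activate Ras, RAF and MEK. Active ERK induces the transcription of its own inhibitors: dual-specificity phosphatases remove phosphate from ERK, Sprouty proteins act between the receptor and RAF, and SPRED proteins bring the Ras inhibitor neurofibromin to the membrane. ETV4 and ETV5 belong to the PEA3 group of ETS transcription factors and carry the transcriptional output of the pathway. In many tumour cells the RNA of these genes is used as a readout of ERK activity. ERK activity itself was not measured in these libraries.

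The control library held 9970815 reads in all, and the Akt1/2 DKO library 10718634. Fold changes are Akt1/2 DKO over control after scaling for library size by the TMM method, and the 95% intervals are exact and cover counting error only. Without a second library of either kind no difference has a replicate check and no p-value is given. A gene is called changed when it differs by at least 1.5-fold, and 30.9% of the 13318 genes with at least 10 reads in both libraries together were changed, 15.9% higher and 15.0% lower. The targeted genes were lower in the Akt1/2 DKO library, AKT1 by 4.96-fold (2645 to 591 reads) and AKT2 by 3.93-fold (2362 to 667 reads). All 10 prostate luminal markers, among them FOXA1 and HOXB13, had at least 10 reads in both libraries, and of the 10, 3 rose and 5 fell by at least 1.5-fold. The leukocyte and endothelial markers PTPRC, CD3E, PECAM1 and CDH5 had at most 1 read in either library. The 10 markers of other cell types together went from 1034 reads in control to 205 in Akt1/2 DKO. Only 3 of the 10 were tested, and these moved in both directions. VIM fell from 897 to 84 reads, and COL3A1, named here after its value was seen, fell from 74 to 9. COL1A1 rose 1.74-fold (95% interval 1.24 to 2.45), from 55 to 106 reads. The part of cells of other types in the results was not tested.

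DUSP4 rose by a large factor in the Akt1/2 DKO library and the other 9 genes, summed, did not. Of the 10 genes, 2 were changed at least 1.5-fold, DUSP4 and DUSP5, both higher in Akt1/2 DKO. That share, 20%, does not exceed the 30.9% of all genes tested. With total counts or upper-quartile factors in place of TMM, 3 of the 10 were changed (30.9% and 30.8% of all genes), with FPKM 5 (31.0%), among the 9 with at least 50 reads 1 (25.7%), with a 2-fold limit 1 (18.0%) and with an interval that leaves out no change as the call 4 (59.2%). The median log2 fold change of the 10 genes was 0.23, beside 0.0063 over all genes tested. DUSP4 alone went from 8 to 575 reads. In RNA from bulk cells, more cells that hold the transcript and more transcript per cell cannot be told apart. The other 9 genes together held 2088 reads in control and 2332 in Akt1/2 DKO, a ratio of 1.01 after scaling (95% interval 0.949 to 1.07). This sum is weighted to the genes with most reads, and SPRED2 alone gave 732 and 739 of them. The median log2 fold change of the 9 genes was 0.21.

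**Figure D1:**
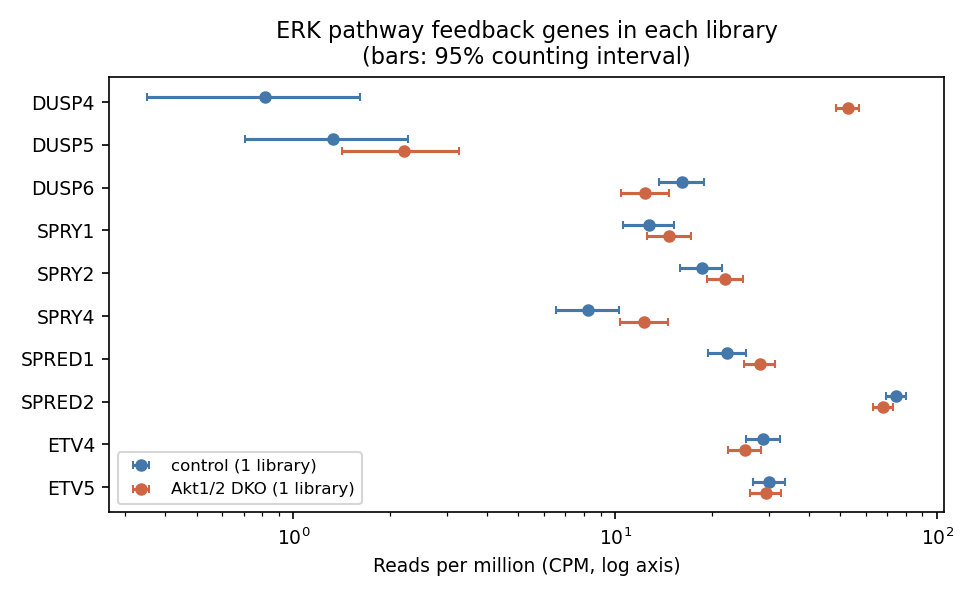
Counts per library size (CPM, log axis) of the 10 feedback genes in the control library and the Akt1/2 DKO library, with 95% counting intervals. DUSP4 lies at 0.815 CPM in control and 52.8 CPM in Akt1/2 DKO, and each of the other genes has its 2 points close together.

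DUSP4 (ENSG00000120875, chromosome 8 from 29333064 to 29350668 in GRCh38) encodes a nuclear phosphatase that acts on ERK and related kinases. It had 8 reads in control and 575 in Akt1/2 DKO, or 0.815 and 52.8 CPM, the reads scaled to a common library size. The rise was 64.8-fold (95% interval 32.7 to 151), a log2 fold change of 6.02. Among the 10956 genes with at least 100 reads in both libraries together, it ranked 23 by the size of the rise. By FPKM, which is scaled by transcript length and can be compared between genes, DUSP4 was the lowest of the 10 genes in control (0.14 FPKM) and the 4th highest in Akt1/2 DKO (9.68 FPKM). The reads and the FPKM together imply a transcript length of 5731 bases in control and 5542 bases in Akt1/2 DKO. Its annotated coding transcripts have 5537 and 2959 bases, and the Akt1/2 DKO value is close to the longer. The control value is coarse, since it rests on 8 reads and an FPKM rounded to 0.14.

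DUSP5 (ENSG00000138166, chromosome 10 from 110497838 to 110511544) encodes a nuclear phosphatase specific to ERK. It had 13 reads in control and 24 in Akt1/2 DKO, a ratio of 1.67. The 95% interval ran from 0.815 to 3.56 and included no change, so the difference was not detectable at this depth. Its annotated processed pseudogenes, DUSP5P1 and DUSP5P2, could take up or lend some of these few reads.

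DUSP6 (ENSG00000139318, chromosome 12 from 89347232 to 89353271) encodes the cytoplasmic phosphatase that is specific to ERK and is often used as the readout of the pathway. It had 158 reads in control and 135 in Akt1/2 DKO, 16.1 and 12.4 CPM. It was 1.30-fold lower (95% interval 1.02 to 1.64), within the 1.5-fold limit and with the sign opposite to DUSP4. By FPKM it went from 10.79 to 6.96, 1.55-fold lower, and so was past the limit. The length implied by reads and FPKM was 1469 bases in control and 1810 bases in Akt1/2 DKO. An antisense gene, AC024909.2, shares 1875 exon bases with DUSP6. Whether the counting used strand is not stated in the sources, so reads of this pair may not have been told apart.

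The 3 Sprouty genes were each higher by less than 1.5-fold. SPRY1 (ENSG00000164056, chromosome 4 from 123396795 to 123403760) had 125 reads in control and 160 in Akt1/2 DKO, a ratio of 1.15 (95% interval 0.908 to 1.47). SPRY2 (ENSG00000136158, chromosome 13 from 80335976 to 80340951) had 182 and 239 reads, a ratio of 1.18 (0.973 to 1.44). Both intervals included no change. SPRY4 (ENSG00000187678, chromosome 5 from 142310427 to 142326455) had 81 and 134 reads, or 8.25 and 12.3 CPM, and its ratio of 1.49 (1.12 to 1.99) lay just inside the 1.5-fold limit. The ratio of SPRY4 was past the limit when libraries were scaled by total counts or by upper quartiles. Together the 3 genes had 388 reads in control and 533 in Akt1/2 DKO, a ratio of 1.24 (95% interval 1.09 to 1.42).

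The ratio of SPRY1 depended on the unit. By FPKM it went from 5.90 to 9.15, a ratio of 1.55, outside the counting interval of its read ratio. The implied length was 2125 bases in control and 1631 bases in Akt1/2 DKO, while for SPRY2 it was 2137 and 2156 bases. SPRY1 has annotated coding transcripts of 573 to 2608 bases.

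**Figure D2:**
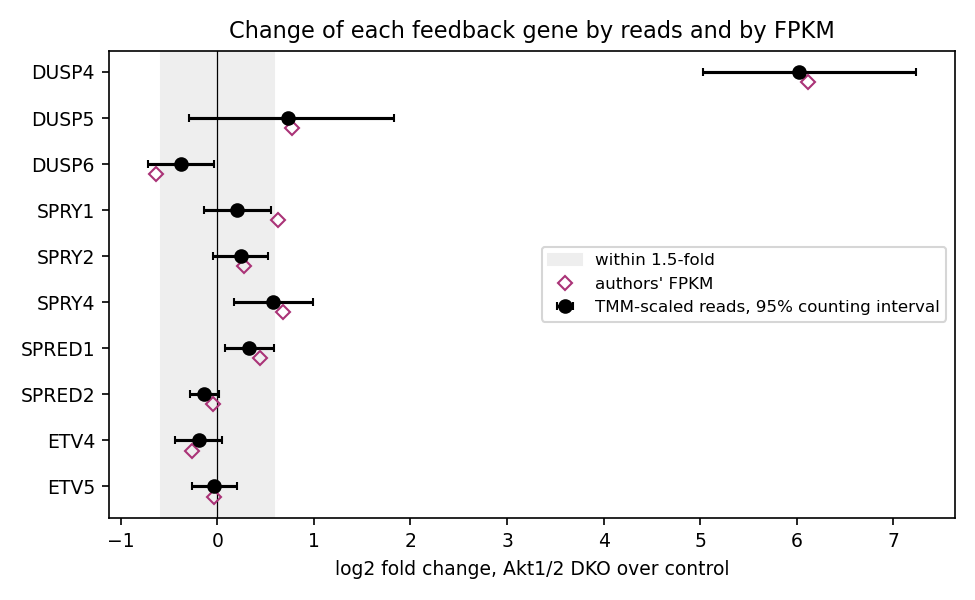
Log2 fold change (Akt1/2 DKO over control) of each feedback gene from TMM-scaled reads with its 95% counting interval (circles) and from the authors' FPKM (diamonds), with the range within 1.5-fold in grey. Only DUSP4 has its whole interval outside the grey range, and the diamonds of SPRY1 (0.63), SPRY4 (0.68) and DUSP6 (-0.63) lie outside it while their circles lie inside.

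SPRY1 and SPRY2 are shown here with the 250 bases before one annotated RefSeq start of each, because they are the pair of paralogs with the most similar read ratios. These windows overlap no exon in GENCODE release 29. Capitals mark the core that ETS factors such as ETV4 and ETV5 recognise, GGAA on either strand (TTCC where it lies on the other strand). The sequences are from RefSeq, build GRCh38.p14, 5′ to 3′ on the strand of the gene. The first is chr4:123396545-123396794 (plus strand) and the second is chr13:80341127-80341376 (minus strand).
SPRY1: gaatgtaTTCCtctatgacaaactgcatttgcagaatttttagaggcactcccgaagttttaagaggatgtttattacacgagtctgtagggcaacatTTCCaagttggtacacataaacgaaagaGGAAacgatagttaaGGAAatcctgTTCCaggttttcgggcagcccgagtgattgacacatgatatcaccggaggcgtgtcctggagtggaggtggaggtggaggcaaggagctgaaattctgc
SPRY2: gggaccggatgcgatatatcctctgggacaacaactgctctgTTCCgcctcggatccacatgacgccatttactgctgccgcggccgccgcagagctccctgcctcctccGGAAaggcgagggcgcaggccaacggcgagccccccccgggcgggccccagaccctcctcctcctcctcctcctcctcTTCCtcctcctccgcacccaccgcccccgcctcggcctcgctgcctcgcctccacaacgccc

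The SPRY1 window holds 5 cores and has a GC content of 45.6%, and the SPRY2 window holds 3 and has a GC content of 70.4%. These differences depend on the start chosen. The other SPRY1 window holds 4 cores (GC content 68%), and the other SPRY2 windows hold 4 each (41.2% and 62.4%). The core is short, and 92.7% of the 35097 RefSeq promoter windows of this length hold at least 1. RefSeq windows were at hand for DUSP6, SPRED1, SPRED2, SPRY1, SPRY2 and SPRY4, 10 windows in all. None of the 10 windows holds the longer ETS site CCGGAAGT, which 3.42% of all windows hold, or the FOXO site GTAAACA, which 2.98% hold, with both strands searched. None holds the cyclic AMP response element TGACGTCA (1.65% of all windows) or the AP-1 site TGACTCA (4.20%). At such shares no hit in 10 windows is the likely outcome for each site, so no conclusion is drawn from it. The windows of DUSP6 and SPRED1 and the other SPRY1 window lie wholly in annotated exons. No window was at hand for DUSP4.

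The SPRED genes differed little between the libraries. SPRED1 (ENSG00000166068, chromosome 15 from 38252326 to 38357249), the gene altered in Legius syndrome, had 219 reads in control and 306 in Akt1/2 DKO, a ratio of 1.26 (95% interval 1.06 to 1.51). SPRED2 (ENSG00000198369, chromosome 2 from 65310851 to 65432637) had 732 and 739 reads, a ratio of 0.911 (0.821 to 1.01). SPRED2 had the highest FPKM of the 10 genes in both libraries, 20.21 in control and 19.58 in Akt1/2 DKO.

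The PEA3 factors ETV4 and ETV5 were within 1.2-fold of control. ETV4 (ENSG00000175832, chromosome 17 from 43527844 to 43579620) had 283 reads in control and 275 in Akt1/2 DKO, a ratio of 0.876 (95% interval 0.740 to 1.04). ETV5 (ENSG00000244405, chromosome 3 from 186046308 to 186110318) had 295 and 320 reads, a ratio of 0.978 (0.833 to 1.15). The log2 fold change of ETV5, -0.03, turned to 0.013 with total counts and to 0.021 with upper-quartile factors. Together they had 578 and 595 reads, a ratio of 0.929 (95% interval 0.827 to 1.04). ETV4 shares 68 exon bases with DHX8 on the other strand, and ETV5 shares 164 with DGKG on the same strand. DHX8 had 977 reads in control and 929 in Akt1/2 DKO, and DGKG had 19 and 5.

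In order of FPKM, the control library ran SPRED2, ETV4, DUSP6, SPRY2, ETV5, SPRY1, SPRED1, SPRY4, DUSP5 and DUSP4, from 20.21 down to 0.14. The counting intervals of DUSP6 and SPRY2, of SPRY2 and ETV5, of SPRED1 and SPRY4, and of DUSP5 and DUSP4 overlapped, so these neighbours were not told apart. In the Akt1/2 DKO library the order ran SPRED2, ETV4, SPRY2, DUSP4, SPRY1, ETV5, DUSP6, SPRY4, SPRED1 and DUSP5, from 19.58 down to 0.87. Each neighbouring pair from ETV4 down to DUSP6 overlapped, as did SPRY4 and SPRED1. DUSP4 moved from the lowest place to a level like those of SPRY2 and SPRY1, and DUSP6 moved from 3rd to 7th.

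The 20 nearest genes with at least 50 reads around each feedback gene, 10 on either side, give the change of the region. Around DUSP4 their median log2 fold change was 0.22, with a range from -0.37 to 3.34. Of the 20, 5 rose at least 1.5-fold, beside 13.1% of all genes with at least 50 reads. Over the 395 other genes of chromosome 8 the median was -0.20. The direct neighbours of DUSP4 were KIF13B, from 140 to 383 reads (log2 fold change 1.30), and SARAF, from 1473 to 1985 reads (0.28). Around ETV5 the median was -0.27, and over the 665 other genes of chromosome 3 it was -0.53, while ETV5 itself was at -0.03. For the other 8 feedback genes the neighbours' medians lay between -0.013 and 0.34.

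Of 12 other phosphatases and feedback inhibitors, 7 rose, 1 fell and 4 stayed within 1.5-fold, so 66.7% were changed beside 30.9% of all genes tested. Their median log2 fold change was 0.9995. DUSP1 and DUSP2 encode inducible nuclear phosphatases like DUSP4. DUSP1 rose 5.67-fold (95% interval 4.23 to 7.72), from 53 to 333 reads, and DUSP2 rose 4.13-fold (3.51 to 4.87), from 181 to 828 reads. DUSP8, whose product prefers the stress kinases JNK and p38, rose 3.02-fold, from 71 to 238 reads. DUSP9, which encodes a cytoplasmic phosphatase related to DUSP6, rose 2.96-fold, from 107 to 351 reads. The gene that fell was IL17RD, an inhibitor of FGF signalling also called SEF, from 60 to 27 reads, named here after its value was seen. It lies on chromosome 3, where the median over genes was -0.53 (log2). DUSP7 and LRIG1 of the same list also lie there and stayed within 1.5-fold, with log2 fold changes of -0.38 and 0.42. Whether position bears on the fall of IL17RD was not tested. Over the 10 phosphatase genes of both lists, grouped after the values were seen, 7 were higher, 0 were lower and 3 (DUSP6, DUSP7 and DUSP16) stayed within 1.5-fold. Of all genes tested, 15.9% were higher and 15.0% lower. The 7 include DUSP4 and also DUSP5, whose interval included no change.

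Of the 13 genes of the cascade itself, from Ras to ERK, 2 rose, 2 fell and 9 stayed within 1.5-fold, among them MAPK3 (601 to 491 reads), which encodes an ERK kinase and was chosen after its value was seen. The changed share, 30.8%, is close to the 30.9% of all genes tested. BRAF was 1.51-fold lower (1.34 to 1.70), from 681 to 500 reads. With total-count or upper-quartile scaling, and with FPKM, BRAF lay within the limit and 3 rather than 4 of the 13 genes were changed. KSR2, a scaffold of the cascade, rose by 1.58 on the log2 scale, from 31 to 103 reads. Among 14 tested adaptors and Ras regulators 12 stayed within the limit, GAB2 rose 2.80-fold (48 to 149 reads) and GAB1 was 1.55-fold lower (60 to 43 reads), so 14.3% were changed beside 30.9% of all genes tested. GAB1 lay within the limit with upper-quartile factors. By FPKM GAB2 rose less, at a log2 fold change of 0.74 in place of 1.49. Of the FGF receptors and ligands 7 of 14 were tested, 1 rose and 1 fell, and 28.6% were changed beside 30.9% of all genes tested. KLB, a coreceptor, rose 2.07-fold, from 37 to 85 reads. FGFR4, a receptor named here after its value was seen, fell 3.41-fold (95% interval 1.83 to 6.74), from 43 to 14 reads.

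Other transcriptional outputs of the pathway moved in both directions. Of 15 tested immediate-early genes, which growth factors induce within minutes, 6 rose and 3 fell, so 60% were changed beside 30.9% of all genes tested (15.9% higher and 15.0% lower). NR4A1, an orphan nuclear receptor, rose 8.73-fold (95% interval 6.67 to 11.6), from 59 to 571 reads. ATF3 rose 3.70-fold, from 143 to 586 reads, and FOSL2 rose 2.76-fold, from 105 to 321 reads. EGR1, a zinc finger factor induced through ERK and serum response factor, fell 3.79-fold (3.18 to 4.53), from 571 to 167 reads. Of 4 other genes often used to score MEK output, PHLDA1 fell 4.01-fold (3.20 to 5.06), from 358 to 99 reads. CCND1, which encodes cyclin D1, rose 1.52-fold, from 23366 to 39293 reads, and EPHA2 rose 1.64-fold, from 72 to 131 reads. The fourth, EPHA4, had 4 and 32 reads, but by FPKM its log2 fold change was -0.26, so its direction depended on the unit.

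ETV1, the third member of the PEA3 group beside ETV4 and ETV5, rose 3.08-fold (95% interval 2.45 to 3.88), from 100 to 341 reads. By FPKM ETV1 rose 2.34-fold, below this interval. Among the 12 tested ETS factors outside the feedback genes, 5 rose and 1 fell, so 50% were changed beside 30.9% of all genes tested. ETS2 rose 3.26-fold, from 192 to 695 reads, but 2.64-fold by FPKM. ETV6 rose 1.95-fold, from 84 to 182 reads. ELK3 was the one that fell, 1.77-fold, from 64 to 40 reads, but by FPKM it was 1.31-fold lower and within the limit. Of 6 genes whose products repress or degrade PEA3 factors, 5 stayed within 1.5-fold and 16.7% were changed. ATXN1, a partner of the repressor CIC, rose 1.80-fold, from 83 to 166 reads. COP1 was found in the table under its older name RFWD2.

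**Figure D3:**
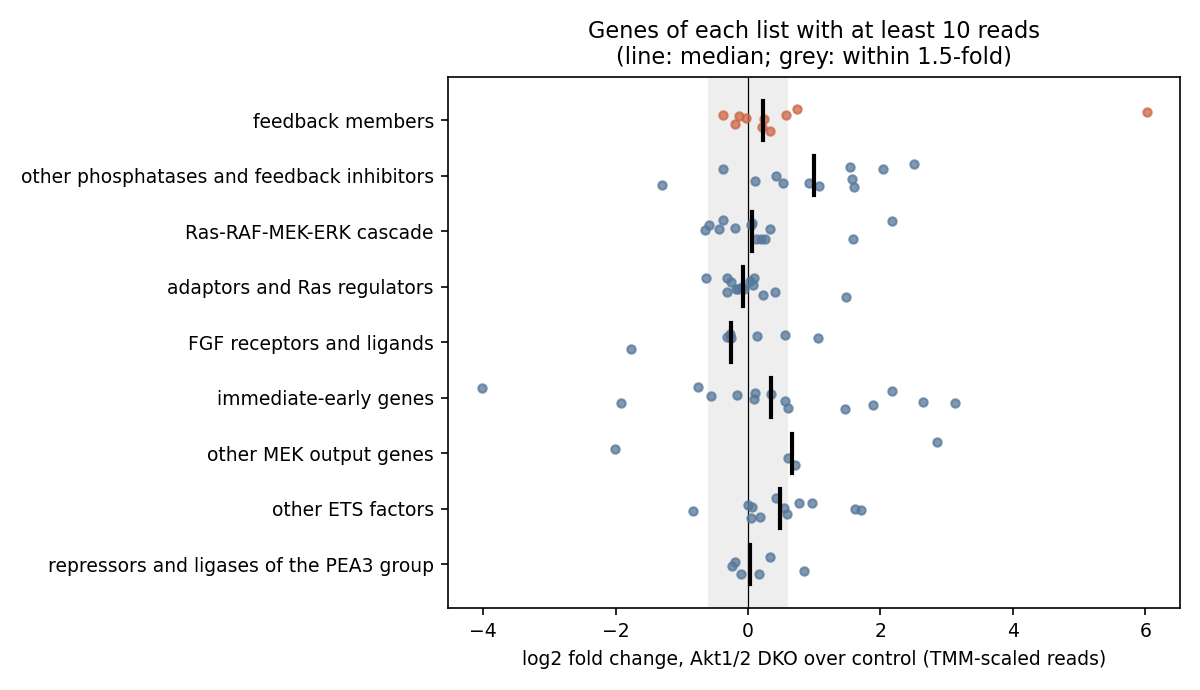
Log2 fold change (Akt1/2 DKO over control, TMM-scaled reads) of each gene with at least 10 reads in the feedback list and in 8 other lists of the ERK pathway, with the median of each list as a line and the range within 1.5-fold in grey. The feedback genes lie in or near the grey range except DUSP4, and 7 of the 12 other phosphatases and feedback inhibitors lie above it.

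Across these 8 lists, 26 of the 83 tested genes rose, 10 fell and 47 stayed within 1.5-fold, so 43.4% were changed beside 30.9% of all genes tested. Their median log2 fold change was 0.14. Since the lists were written with earlier results of these data known, no conclusion is drawn from this share.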

How the data were processed

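Total RNA was isolated with TRIzol from CWR22rv1 Akt1/2 DKO and control cells and sequenced, with 1 library per condition. Per the submitters' processing notes, fastp 0.20.0, TopHat, Cufflinks, edgeR and the build GRCh38.p10 were used. The counting tool and the use of strand are not given in the sources used here. The files deposited by the authors hold, for each gene, an estimated count without normalization and an FPKM value. Tables of their own comparison (fold changes, p-values, changed genes by class) and their library correlation were not used.

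Estimated counts were rounded. A gene entered with 10 or more reads summed over both libraries, and TMM factors (edgeR 4.0.16, R 4.3.3) put the Akt1/2 DKO library at 1.11 times the size of the control library. CPM were computed on the TMM-scaled sizes. Intervals are exact (Clopper-Pearson, 95%, scipy 1.17.1, Python 3.11.15) given the reads of both libraries, or exact Poisson for CPM and FPKM. A library under 3 reads (0.301 CPM in control, 0.280 in Akt1/2 DKO) was set to 3. Implied length is the gene length at which the reads and the library total give the deposited FPKM. Positions are those of GENCODE release 29 (GRCh38), which held 19571 of 19607 identifiers. The fold change and interval steps were tested on simulated counts that held counting error only, with the size ratio known. The library scaling, FPKM, neighbour and promoter steps were not tested in this way.

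The members and lists were chosen with earlier results of these data known. Named genes are the members, AKT1, AKT2 and, from each other list, up to 4 changed genes with the largest changes and at least 100 reads. Exceptions are stated. Some genes of these lists are counted but not reported here by name. The alternatives were other library scalings (total counts, DESeq2 1.42.0, upper quartile), FPKM, other read filters (none, or at least 50 reads), a 2-fold limit, the counting interval as the call and 1 added read.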

Additional observations from a re-analysis of the deposited data

How the results depend on the processing

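DUSP4 was changed under every alternative run, and DUSP5 was not changed with at least 50 reads, where it was left out, with a 2-fold limit or with the interval as the call. The number of changed feedback genes, 2 as reported, was 1 with a 2-fold limit and 1 with at least 50 reads. It was 4 with an interval that leaves out no change (DUSP4, SPRY4 and SPRED1 higher, DUSP6 lower), a rule that 59.2% of all genes met, and 5 with FPKM (DUSP4, DUSP5, SPRY1 and SPRY4 higher, DUSP6 lower), where 31.0% of all genes were changed. The cause of the FPKM difference was not tested. It was 3 with total counts and with upper-quartile factors, which added SPRY4. The median log2 fold change of the feedback genes ran from 0.21 with at least 50 reads to 0.36 with FPKM. Of 69 values of single feedback genes under alternatives, 68 stayed within their counting intervals, and SPRY1 with FPKM (0.63) did not. The library scalings and read filters shift all genes by a common factor, with size ratios of 1.07 to 1.11. They could hardly take a value out of its interval, so the count of 68 is a weak check. With a 2-fold limit (18.0% of all genes), 2 of 13 cascade genes and 1 of 14 adaptors and Ras regulators were changed. Of other ETS factors 2 of 12 were changed, and of other MEK output genes 2 of 4. Of repressors and ligases of the PEA3 group, 0 of 6 were changed. With the interval as the call (59.2% of all genes), 10 of 13 cascade genes and 6 of 14 adaptors and Ras regulators were changed. The same rule called 5 of 7 FGF receptors and ligands and 4 of 6 repressors and ligases of the PEA3 group. Upper-quartile factors left 1 of 14 adaptors and Ras regulators, without GAB1, beside 30.8% of all genes. The depth limits DUSP5, whose 13 and 24 reads leave its direction open to counting error. No paired analysis was possible because there was a single library of either kind.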

Other observations

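The pathway annotation in the authors' table lists 253 genes under MAPK signaling, a list taken up after values of the other genes were seen. Of these, 194 had at least 10 reads in both libraries together, 41 rose and 28 fell, so 35.6% were changed beside 30.9% of all genes tested. The 4 largest rises with at least 100 reads were those of FLNC, DUSP4, PLA2G4A and CACNB2. FLNC, which encodes the actin crosslinker filamin C, rose 80.9-fold (95% interval 55.8 to 122), from 28 to 2510 reads. PLA2G4A, a cytosolic phospholipase that ERK phosphorylates, went from 0 to 106 reads, 31.9-fold higher against the floor of 3 reads, and its 95% interval began at 25.5-fold. CACNB2, a calcium channel subunit, rose 20.1-fold (9.97 to 47.2), from 8 to 178 reads, and 32.6-fold by FPKM.

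The 4 largest falls were those of EGFR, AKT1, MRAS and AKT2. EGFR, a receptor upstream of Ras and ERK, fell 39.0-fold (95% interval 34.1 to 44.7), from 7912 to 225 reads, and 29.9-fold by FPKM. MRAS, a Ras relative that activates RAF together with SHOC2, fell 4.55-fold (2.76 to 7.83), from 82 to 20 reads, and 7.0-fold by FPKM. The falls of EGFR and EGR1 and the rise of DUSP4 were measured in the same 2 libraries, and no relation between them was tested.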
